A study of Mus musculus with 16 samples.

Results

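Exon 1 of the long non-coding RNA MUNC, with the hairpin called CH1 in the labels, was described residue by residue in 8 structure-probing profiles. Exon 1 is residues 1 to 130 of the 518-residue spliced RNA. It was placed as the 5′ stretch that the deposited spliced and genomic sequences share before the genomic sequence continues into an insert. The first 25 residues lie under the amplification primer and carry no reactivity, so 105 of the 130 residues were measured in most profiles. The CH1 deletion profile measured 71 of them, from residue 60 on, because its primer site reaches further into exon 1. Spliced in-cell replicate 2 measured 96, from residue 35 on. Numbering starts with 1 at the 5′ end of the spliced RNA, unless a sentence names another RNA. A residue is written with its base, so A32 is the A at position 32.

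The source of all RNA was C2C12, a mouse myoblast line whose cells fuse into muscle fibres in culture. The labels describe the cells as PAX7 NEG, grown in medium with serum, and as overexpressing 1 of 4 MUNC forms. These were spliced MUNC, genomic MUNC of 1083 residues with an insert of 565 residues after exon 1, a CH1 deletion and a CH4 deletion. The CH1 deletion lacked residues 6 to 34, which are 29 residues of exon 1, and its deposited sequence carried the substitution C58A within its primer site. The CH4 deletion lacked residues 275 to 301, which are 27 residues of exon 2, so its exon 1 is intact. RNA was treated inside the cells (in-cell) or after extraction (cell-free), with 25 mM 5NIA or with the solvent DMSO alone. The spliced form has 2 replicates in each environment, the genomic form 1 profile in each, and each deletion 1 cell-free profile. The labels do not say whether the replicates were separate cultures, so p-values measure only the spread between these samples. Whether reads of the cells' own MUNC are among those counted was not tested.

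In the SHAPE-MaP assay a small electrophile, here 5NIA, attaches to the ribose of nucleotides that move freely. Reverse transcriptase reads past the adduct and leaves a mutation, so the mutation rate rises at flexible nucleotides and stays near that of the solvent control where a nucleotide is held in a helix. The authors' normalised reactivity subtracts the DMSO rate from the 5NIA rate and scales the difference by a factor for each profile. Reactivities of 0.7 and above are called high here. MUNC is transcribed upstream of the gene for MyoD, the transcription factor that starts the muscle programme, and the study's title ties its structural domains to transcription of promyogenic factors. A hairpin forms when a strand folds back on a complementary stretch, and long RNAs also hold helices between distant stretches, such as those between exon 1 and exon 2 described here.

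The sequence of exon 1 is shown because every helix below is read from it. The capitals in exon 1 mark the segment that the CH1 deletion lacks. In the other sequences they mark residues with 1 partner at a probability of at least 0.5. The model is the authors' model of the spliced RNA with both replicates joined. C80, C81, G88 and G89 of the arm reach 0.5 only when summed over partners, so they are in lower case but count as paired below.
Exon 1 (residues 1 to 130): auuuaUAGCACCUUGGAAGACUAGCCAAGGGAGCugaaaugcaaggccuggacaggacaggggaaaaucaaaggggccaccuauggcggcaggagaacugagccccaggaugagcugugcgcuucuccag
CH1 hairpin (residues 6 to 36): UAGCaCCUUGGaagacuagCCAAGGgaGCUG
Exon 1 strand of the helices with exon 2 (residues 55 to 70): GGAcaGGGGaaaAUCA
Exon 2 strand of the same helices (residues 157 to 173): UGAUgaaCCCCacaUCC
Arm (residues 73 to 106): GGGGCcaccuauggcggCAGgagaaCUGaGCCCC
Hairpin next to the splice junction (residues 108 to 128): GGAuGAGCugugcGCUUcUCC
In RefSeq, MUNC is a synonym of Gm45923, a long non-coding RNA gene on mouse chromosome 7. The first 50 residues of exon 1 matched the RefSeq sequence at the gene's annotated start, chr7:46371403-46371452 on the forward strand of GRCm38.p6, and residue 1 fell on the annotated first base.

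The spliced cell-free profiles of exon 1 were alike. Across its 105 residues the Pearson correlation of replicates 1 and 2 was 0.951, and the mean reactivities were 0.480 and 0.474. Replicate 1 of the in-cell profiles correlated at 0.948 with cell-free replicate 1. In-cell replicate 2 stood apart. Its correlation with in-cell replicate 1 was -0.051 over 96 residues, and 0.317 once residues with a mutation rate of 5% or more were left out. These correlations are over residues that share their libraries and base composition, and they are descriptions only. The median effective depth over exon 1 ran from 7674 in the 5NIA library of in-cell replicate 2 to 157812 in the DMSO library of cell-free replicate 1. In genomic cell-free, 34 of the 105 residues had a 5NIA mutation rate below the DMSO rate, against 1 to 15 residues in the other profiles. Outside exon 1 such residues were 181 of 928 in genomic cell-free and 58 of 363 in spliced in-cell replicate 2, so they were not confined to exon 1. Every result that rests on in-cell replicate 2 or on genomic cell-free is therefore given beside the other libraries.

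Reactivity followed the base as well as the fold. In cell-free replicate 1 the 30 measured A residues had a mean reactivity of 1.135, against 0.257 for 37 G, 0.191 for 25 C and 0.159 for 13 U. In replicate 2 the means were 1.111 for A, 0.226 for G, 0.224 for C and 0.193 for U. Of 22 A residues that the joined model leaves unpaired, 18 were at 0.7 or above in both replicates. Of 7 unpaired C residues 3 were below 0.3 in both, as were 4 of 6 unpaired U and 4 of 8 unpaired G. A low value at a C, U or G in exon 1 therefore does not by itself mark a paired residue.

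**Figure D1:**
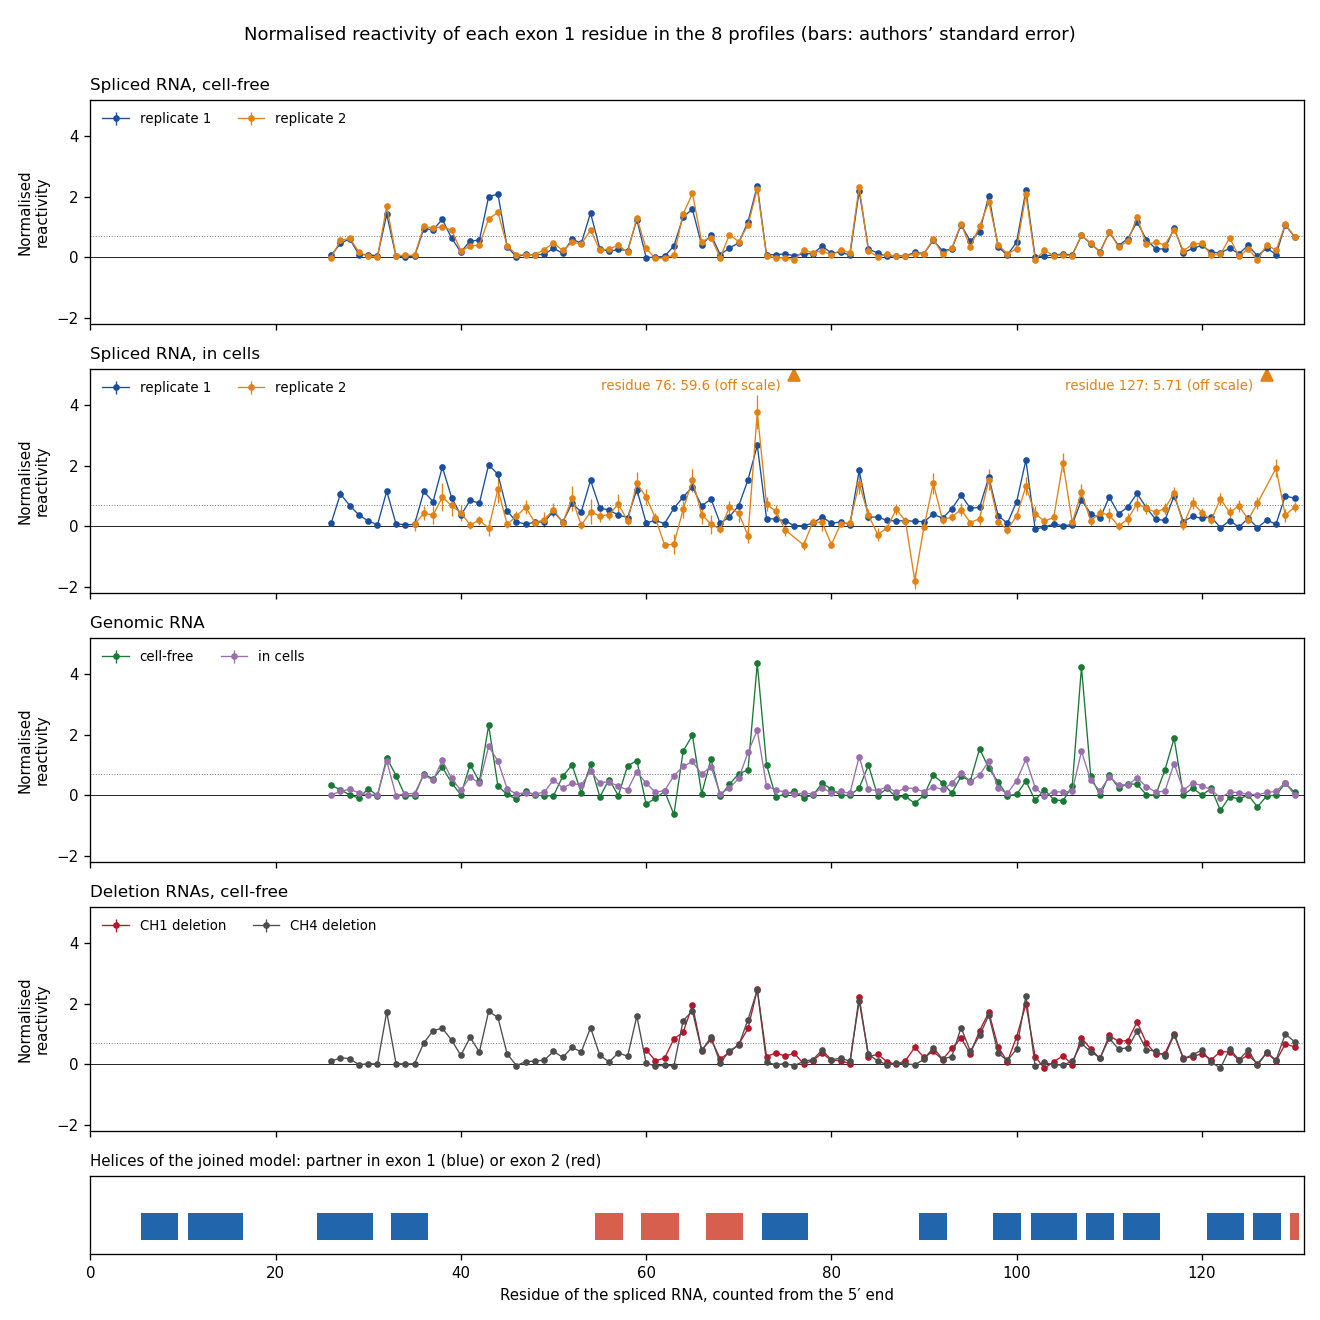
Normalised reactivity (y axis) at each residue of exon 1 (x axis) in the 8 profiles, in 4 panels by RNA form and environment, with the authors' standard errors as bars and a dotted line at 0.7. The lower bar marks helices of the joined model by partner. In the spliced panels the peaks at A72, A83 and A101 recur in both cell-free replicates, and the values of in-cell replicate 2 at G76 (59.6) and C127 (5.71) lie off the scale.

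Whether 5NIA raised the mutation rate over DMSO was tested at each residue over the 8 spliced libraries with edgeR's quasi-likelihood test and Benjamini-Hochberg adjustment over 468 residues. In exon 1, 63 of 105 residues were higher with 5NIA at an adjusted p under 0.05 and 0 were lower. The share over all residues tested was 62%, so exon 1 was near the background. By base, 26 of 30 A residues were called, 14 of 25 C, 18 of 37 G and 5 of 13 U. The largest log2 ratio was at A101, at 4.24 (SE 0.87), followed by A72 at 3.87, A83 at 3.80, C127 at 3.74 and C42 at 3.61. The median over exon 1 was 1.90 on the log2 scale. The lowest ratios were at G62 (-0.17) and G102 (-0.05), both inside helices of the joined model. With the cell-free libraries alone 67 of 105 were called, where 69.2% of all residues were. With all 16 libraries 50 of the 71 exon 1 residues that every form measured were called, where 351 of all 407 residues (86.2%) were. In both of these fits the exon 1 share was below that of all residues. The count depended on the libraries and the scaling. By edgeR it was 7 higher and 17 lower with TMM scaling and 11 without replicate 2. It was 0 with the in-cell libraries alone (19 at an unadjusted p under 0.05) and 0 without replicate 1 (26 unadjusted). Without cell-free replicate 1 alone it was 37 and without cell-free replicate 2 alone 28.

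The 8 highest residues by mean of the cell-free replicates were all A and all outside the joined model's pairs. They were A72 at 2.31 ± 0.068 (SD, n = 2), A83 at 2.26 ± 0.10, A101 at 2.15 ± 0.096, A97 at 1.93 ± 0.14, A65 at 1.85 ± 0.37, A44 at 1.79 ± 0.43, A43 at 1.63 ± 0.52 and A32 at 1.55 ± 0.19. They lie in the loop between the helices of CH1 (A32), the linker after CH1 (A43, A44), the loop between helices with exon 2 (A65), the joint before the arm (A72) and the loops of the arm (A83, A97, A101). The next residue was A64 at 1.39 ± 0.069, beside A65.

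The authors deposited pairing probabilities for each cell-free RNA, with spliced models for each replicate and for both joined. The labels tie each model to the SHAPE data of its RNA, so the agreement of a cell-free profile with its own model is not independent of the model. In the joined model, 37 pairs with at least 1 residue in exon 1 had a probability of 0.5 or more. Of these, 25 lay within exon 1 and 12 joined exon 1 to exon 2. Summed over partners, 73 of the 130 residues (56.2%) were paired at 0.5 or more, against 53.6% of the other residues of the spliced RNA. All 37 pairs recurred in the models of replicate 1, replicate 2 and the CH4 deletion. Only 22 of the 37 (59.5%) recurred in the genomic model, and 3 of the 27 that the CH1 deletion could still form (11.1%) recurred in its model. The area under the ROC curve, here the share of unpaired-paired residue pairs of exon 1 in which the unpaired residue was more reactive, was 0.789 and 0.763 in the spliced cell-free replicates. It was 0.777 in genomic cell-free, 0.796 in the CH1 deletion and 0.807 in the CH4 deletion, each with its own model. The in-cell profiles, which no deposited model used, gave 0.782 and 0.559 for spliced replicates 1 and 2 and 0.798 for genomic. None of these areas separates pairing from base. In the joined model 22 of 30 measured A are unpaired, against 7 of 25 C, 8 of 37 G and 6 of 13 U.

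**Figure D2:**
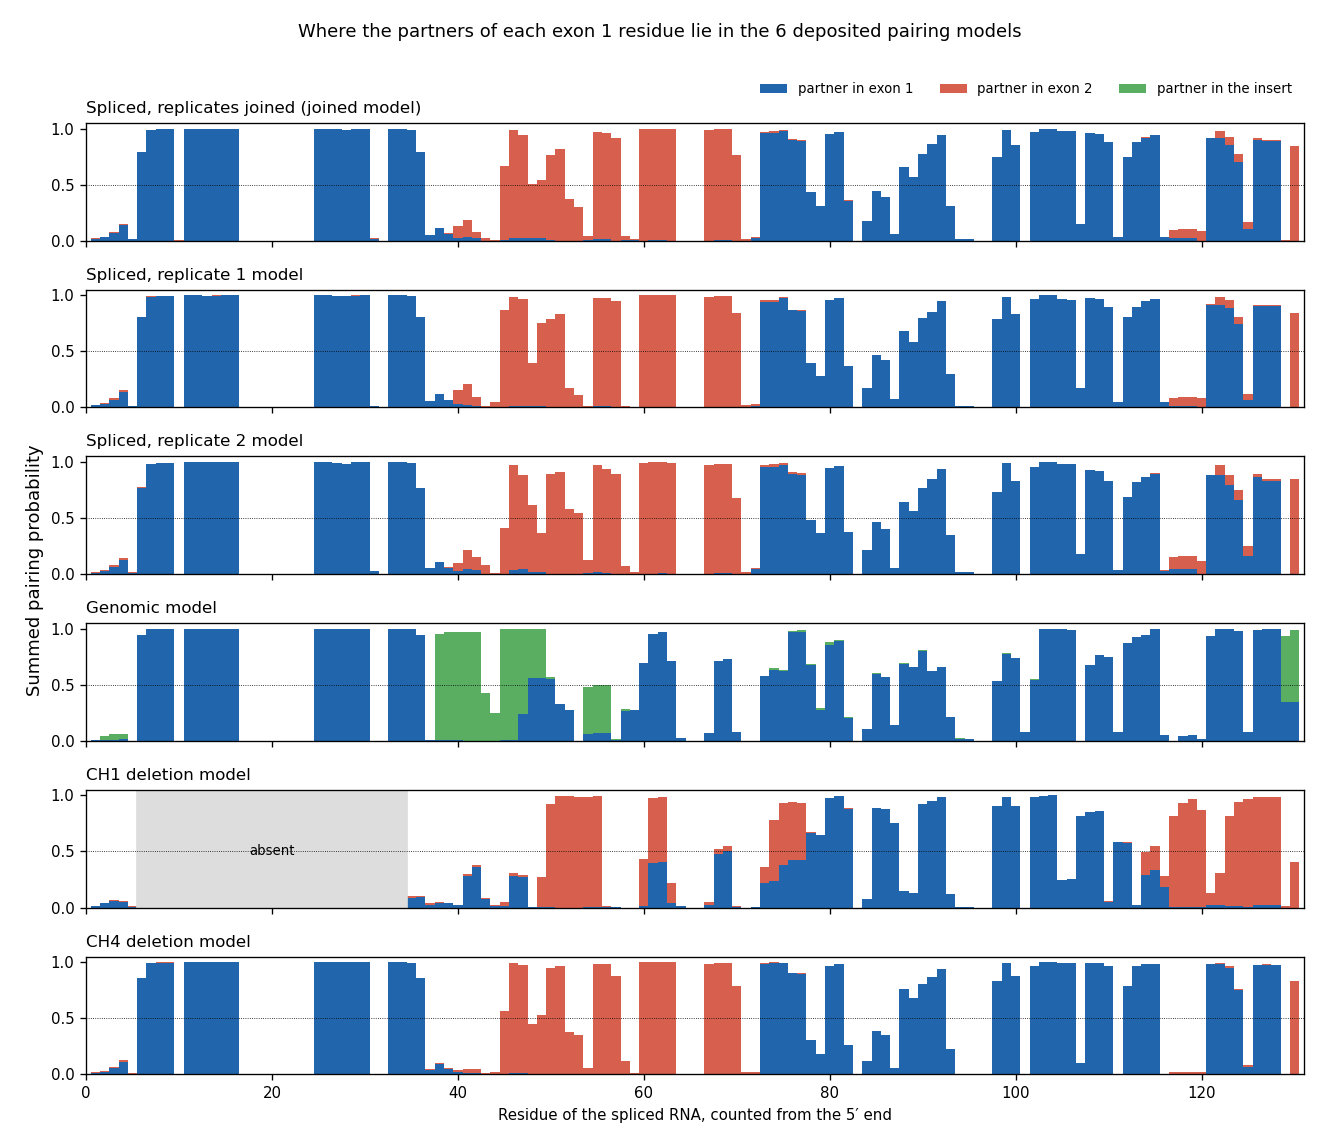
Summed pairing probability (y axis) at each residue of exon 1 (x axis) in the 6 deposited models, stacked by where the partner lies. Exon 2 partners take residues 55 to 70 in the spliced and CH4 deletion models, insert partners take residues 38 to 42 in the genomic model, and grey marks residues 6 to 34, absent from the CH1 deletion.

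CH1 is a hairpin of 2 stacked helices in the joined model. Residues 6 to 9 pair with 33 to 36 at probabilities of 0.784 to 0.992, and residues 11 to 16 pair with 25 to 30 at 0.980 to 0.999. They close a loop of 8 residues, 17 to 24. Between the 2 helices, A10 of the 5′ strand faces G31 and A32 of the 3′ strand in an internal loop. The CH1 deletion removes residues 6 to 34 and leaves U35 and G36 of this hairpin in place, so the label and the model name the same element. Only the 3′ strand, from C26 on, was measured. The 5′ strand and the loop lie under the primer, so the hairpin was seen from 1 side.

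Along that strand the reactivity marked A32 of the internal loop and the base of the stem. A32 had reactivities of 1.42 and 1.69 cell-free, 1.16 in-cell (replicate 1), 1.24 and 1.13 in genomic cell-free and in-cell, and 1.73 in the CH4 deletion. It was high in all 6 profiles that measured it. G31, beside it in the internal loop, was at 0.047 or below in all 6. The stem residues C34 and U35 stayed at 0.068 or below in every profile that measured them. G33 was at 0.080 or below in 5 profiles and at 0.649 in genomic cell-free. C26 and G30, in the upper helix, were at 0.106 and 0.176 or below except in genomic cell-free, where they were at 0.323 and 0.218. G29 was at 0.369 in in-cell replicate 1 and at 0.171 or below in the others.

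G36 closes the stem as a G-U pair with U6 at 0.784 and was high in both spliced cell-free replicates in spite of it. Its reactivities were 0.944 and 1.02 cell-free, 1.15 and 0.431 in-cell, 0.710 and 0.669 in genomic cell-free and in-cell, and 0.701 in the CH4 deletion. Its lowest value came from in-cell replicate 2, and the other 6 ran from 0.669 up.

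A27 and A28, in the middle of the upper helix, had their highest values in the spliced profiles. A27 had reactivities of 0.455 and 0.557 cell-free and 1.07 in-cell for the spliced RNA, 0.182 and 0.126 for genomic cell-free and in-cell, and 0.214 for the CH4 deletion. A28 had 0.612 and 0.627 cell-free, 0.685 in-cell, 0.010 and 0.198 for genomic and 0.182 for the CH4 deletion. At both residues every spliced reactivity was above every reactivity of the other forms. Spliced in-cell replicate 2 has no reactivity at either. At A28 its 5NIA rate was 0.172%, 5 mutations in 2900 reads, against 0.179% with DMSO. At A27 its rates were 0.281% and 0.124%. The DMSO rate at A27 and A28 was itself uneven between the replicates. At A27 it was 1.27% (95% Wilson interval 1.20 to 1.35%) in cell-free replicate 1 and 0.201% (0.134 to 0.301%) in cell-free replicate 2, with 5NIA rates of 2.49% (2.34 to 2.65%) and 2.13% (1.81 to 2.50%). These intervals cover counting error only, since the reads carry no molecular identifiers. Effective depth was 6717 reads at A27 in the 5NIA library of replicate 2. The part of the uneven DMSO rate in the differences between RNA forms was not tested.

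**Figure D3:**
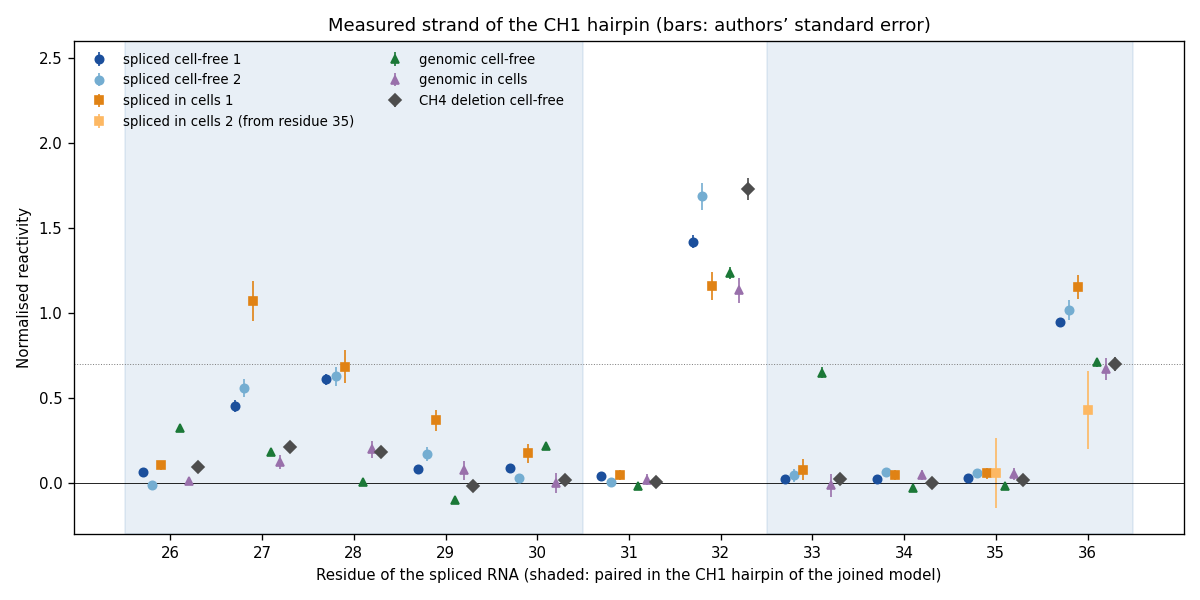
Normalised reactivity (y axis) of residues 26 to 36, the measured strand of the CH1 hairpin (x axis), in the profiles that measured it, with the authors' standard errors as bars and paired residues shaded. A32 is high in every profile with a value there, and G36 is high in both spliced cell-free replicates although it is paired. A27 and A28 are higher in the spliced profiles with a value there than in the others.

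The linker, residues 37 to 54, runs from CH1 to the first helix with exon 2 and falls into an open and a crowded stretch. Residues 37 to 44 had a mean reactivity of 1.02 and 0.824 in the cell-free replicates and 1.18 in in-cell replicate 1, against 0.358, 0.339 and 0.437 for residues 45 to 54. The stretches were closer in the other in-cell profile, at 0.483 and 0.346. Residues 37 to 44 are mostly A and residues 45 to 54 mostly other bases, so the stretches differ in base as well. A43 was at 2.00 and 1.27 cell-free, 2.04 and -0.064 in-cell, 2.31 and 1.61 in genomic cell-free and in-cell, and 1.75 in the CH4 deletion. A44 beside it was at 2.09 and 1.48 cell-free, 1.72 and 1.22 in-cell, 0.301 and 1.13 in genomic, and 1.55 in the CH4 deletion. A43 was near 0 only in in-cell replicate 2, and A44 was lowest in genomic cell-free.

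The crowded stretch has no single partner in the joined model. G46 was paired at a summed probability of 0.983, but its partner was residue 375 of exon 2 at 0.399, residue 511 at 0.295 and residue 418 at 0.203. The model of replicate 1 alone gave residues 45 to 47 with 374 to 376 at 0.605 to 0.607, and the model of replicate 2 alone gave residues 46 to 48 with 509 to 511 at 0.531 to 0.536. Residues 50 to 53 had residues 502 to 505 at no more than 0.280. G46 itself had reactivities of 0.017 and 0.089 cell-free and 0.141 in in-cell replicate 1.

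Residues 55 to 70 form 3 short helices with exon 2, separated by loops, and they hold all the exon 1 to exon 2 pairs that the joined model gave at 0.5 or more apart from the junction. Residues 55 to 57 pair with 171 to 173 at 0.881 to 0.892, residues 60 to 63 with 164 to 167 at 0.992 to 0.993, and residues 67 to 70 with 157 to 160 at 0.766 to 0.988. The paired residues 60 to 63, a run of G, had mean reactivities of 0.100 and 0.074 cell-free and 0.247 in in-cell replicate 1. Residues 58, 59 and 64 to 66, between the helices, had means of 0.957 and 1.11 cell-free and 0.886 in in-cell replicate 1. Apart from C58 they are all A, so these sets differ in base as well as in pairing.

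On the exon 2 side the strands differed. Residues 164 to 167 had means of 0.109 and 0.115 cell-free and 0.131 in in-cell replicate 1. Residues 171 to 173 had 0.169, 0.192 and 0.116, and residues 157 to 160 had 0.285, 0.265 and 0.421. Within the last strand residue 158, a G, was at 0.514 and 0.592 cell-free and 0.731 in in-cell replicate 1. A59, in the loop, was at 1.24 and 1.30 cell-free, 1.21 and 1.41 in-cell, 1.14 and 0.781 in genomic and 1.59 in the CH4 deletion. A67, at the end of the last helix, was at 0.738 and 0.652 cell-free although its summed pairing probability was 0.984.

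A71 and A72 join the exon 2 helices to the arm and are unpaired in every model. A72, with the highest mean of the cell-free replicates, was at 2.36 and 2.26. It was at 2.68 and 3.78 in-cell, 4.36 and 2.15 in genomic cell-free and in-cell, 2.48 in the CH1 deletion and 2.46 in the CH4 deletion. No profile put it below 2.15.

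The arm folds exon 1 on itself. Residues 73 to 77 pair with 102 to 106 at 0.803 to 0.837, and residues 90 to 92 pair with 98 to 100 at 0.581 to 0.630 around a loop of 5 residues. The 10 residues of the outer helix had mean reactivities of 0.074 and 0.048 cell-free, 0.072 in in-cell replicate 1, 0.102 and 0.126 in genomic cell-free and in-cell, 0.172 in the CH1 deletion and 0.014 in the CH4 deletion. In genomic cell-free G73 alone reached 1.01. In in-cell replicate 2 the mean was 6.32, which G76 sets. The loop residues 93 to 97 had means of 0.952 and 0.918 cell-free and 0.888 in in-cell replicate 1. The outer helix holds only G and C and the loop mostly A, so these sets too differ in base as well as in pairing.

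A83 and A101 are, with A97, the most reactive residues of the arm cell-free. A83 was at 2.19 and 2.33 cell-free, 1.84 and 1.41 in-cell, 2.22 in the CH1 deletion and 2.08 in the CH4 deletion, against 0.238 and 1.28 in genomic cell-free and in-cell. A101 was at 2.21 and 2.08 cell-free, 2.19 and 1.31 in-cell, 1.99 in the CH1 deletion and 2.26 in the CH4 deletion, against 0.469 and 1.19 in genomic. At both residues the genomic values were below those of every other profile.

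The hairpin of residues 108 to 128 lies just before the splice junction. Residues 108 to 110 pair with 126 to 128 at 0.880 to 0.889 and residues 112 to 115 with 121 to 124 at 0.636 to 0.890, around a loop of 5 residues. Several of its paired residues were reactive. A110 was at 0.826 and 0.851 cell-free, 0.967 and 0.370 in-cell, 0.669 and 0.601 in genomic, 0.950 in the CH1 deletion and 0.854 in the CH4 deletion. A113 was at 1.17 and 1.32 cell-free, 1.08 and 0.751 in-cell, 0.362 and 0.574 in genomic, 1.39 in the CH1 deletion and 1.09 in the CH4 deletion. Both are paired in the joined model at summed probabilities of 0.881 and 0.880. G117 in the loop ran from 0.911 to 1.09 in 7 profiles and was at 1.88 in genomic cell-free. The strand end was low outside in-cell replicate 2. C125 was at 0.466 or below, U126 at 0.038 or below and C127 at 0.416 or below in the other 7 profiles, and in in-cell replicate 2 they were at 0.220, 0.763 and 5.71. The last paired residue was alike, with C128 at 0.225 or below in 7 profiles and 1.92 in in-cell replicate 2.

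At the junction itself, A129 was at 1.07 and 1.09 cell-free and 1.00 and 0.365 in-cell. G130, the last residue of exon 1, was at 0.672 and 0.685 cell-free and 0.927 and 0.633 in-cell, while the joined model pairs residues 130 to 132 with 137 to 139 of exon 2 at 0.770 to 0.843.

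Whether exon 1 differed between cells and extracted RNA was tested on the 4 spliced profiles with limma's moderated test. No residue of the 96 compared in exon 1 passed an adjusted p of 0.05, and 0 of all 456 did (0%). At an unadjusted p under 0.05 there were 2 in exon 1 and 9 in all. The smallest adjusted p by limma was 0.841, shared by G61 (in-cell minus cell-free 0.246, SE 0.081), A64 (-0.624, SE 0.217) and A96 (-0.500, SE 0.184). The sign was the same in both replicates at each. The median difference over exon 1 was 0.00192. The result depended on the in-cell replicates. Without in-cell replicate 1, 53 residues passed, 24 higher and 29 lower in cells, and without in-cell replicate 2 only G61 did, at an adjusted p of 0.0394 by limma. A lone in-cell profile is then assumed to vary like the cell-free pair.

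The size of single differences was therefore read with a rule that has no test. To pass it, a difference in reactivity had to reach 0.5 and to exceed the sum of the 95% error margins of both values, taken from the authors' standard errors. Between the cell-free replicates, where no difference in treatment exists, 4 of 105 residues of exon 1 passed it (2.35% of all residues compared). They were A43 (replicate 1 minus replicate 2, 0.734), A44 (0.608), A54 (0.558) and A65 (-0.523). In replicate 1, in-cell minus cell-free, 2 of 105 residues passed (3.42% of all residues). They were A38, higher in cells by 0.704, and A27, higher by 0.616.

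In replicate 2, 28 of 96 residues passed, against 23.5% of all residues compared. By direction, 14 were higher in cells (9.21% of all) and 14 lower (14.3%). The largest were G76 (59.7 higher in cells), C127 (5.29), C105 (2.02), G89 (-1.89) and C128 (1.69). At G76 the 5NIA library of in-cell replicate 2 held 1218 mutations in 7557 reads, 16.1% (95% Wilson interval 15.3 to 17.0%), against 0.751% (0.677 to 0.833%) in its DMSO library. In in-cell replicate 1 the rates at G76 were 0.458% with 5NIA and 0.449% with DMSO. The 5NIA library of in-cell replicate 2 had the lowest median depth of all, and its part in these differences was not tested. With profiles set to equal means, 4 of the residues past the rule were higher and 23 lower.

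The authors' deposited table of in-cell against cell-free differences for replicate 1 gave an absolute Z score of 2 or more at 5 of 105 residues of exon 1. In the whole RNA, of which 468 residues were measured, 12 had such a score. Those in exon 1 were G46, G60, G61, G86 and G102. The authors' deposited table for replicate 2 gave 6 of 105 in exon 1 and 15 in the whole RNA. Those in exon 1 were G46, G60, G76, C105, C122 and U126. In both tables the deposited in-cell column has a slope of 0.434 on the natural log of the in-cell rate ratio. It is therefore on another log base than the cell-free column. The deposited differences and their Z scores mix these bases, so neither direction nor size is read from them.

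In the genomic RNA exon 1 is followed by the insert in place of exon 2, and its model had no pair of 0.5 or more between exon 1 and exon 2. It had 29 pairs in exon 1, 22 within exon 1 and 7 with the insert. With a minimum of 0.3 there were 57 pairs and with 0.8 there were 19. CH1 was kept, at 0.947 to 0.996 for residues 6 to 9 with 33 to 36 and at 0.998 to 1.000 for the upper helix. The outer helix of the arm was at 0.517 to 0.554, and the helix of residues 112 to 115 with 121 to 124 at 0.871 to 0.931. In place of the open stretch of the linker the model pairs residues 38 to 42 with 160 to 164 of the genomic RNA, in the insert, at 0.944 to 0.970. The strands are shown because this helix ties the linker to the insert, with paired residues in capitals.
Linker strand of genomic MUNC (residues 37 to 43): aAAUGCa
Insert strand of genomic MUNC (genomic residues 159 to 165): uGCAUUg
The insert strand had mean reactivities of 0.140 in genomic cell-free and 0.213 in genomic in-cell. On the linker strand A38 was at 0.927 and 1.15, A39 at 0.413 and 0.554 and G41 at 1.01 and 0.609 in genomic cell-free and in-cell. U40 was at 0.012 and 0.161 and C42 at 0.454 and 0.387. G41, which the joined model leaves unpaired, was at 0.539 and 0.364 in the spliced cell-free replicates and at 0.857 in spliced in-cell replicate 1. The genomic value at G41 was thus the higher one cell-free and the lower one in cells.

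Of 105 residues of exon 1, 21 passed the size rule for genomic cell-free against the mean of the spliced cell-free replicates, 10 higher and 11 lower. Over all residues 8.99% passed, 5.57% higher and 3.43% lower, and outside exon 1 21 of 362 (5.80%) did. There is 1 genomic cell-free profile, so the difference has no replicate check. The largest was at A107, between the arm and the hairpin, at 4.24 in genomic against 0.719 and 0.737 in the spliced replicates. A72 was at 4.36 against 2.36 and 2.26. A83, A101 and A44 were lower by 2.02, 1.68 and 1.49. The genomic 5NIA rate was 11.2% at A107 (95% Wilson interval 11.1 to 11.4%) and 11.5% at A72 (11.3 to 11.7%), with DMSO rates of 0.142% and 0.044%. At A83 it was 0.685% (0.636 to 0.737%) against 0.061% with DMSO. Against each spliced replicate alone, 18 of the residues passed both times.

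The same comparison in cells, genomic against spliced replicate 1, uses other libraries throughout. Of 105 residues 11 passed, 1 higher and 10 lower. Over all residues 5.98% passed, 2.35% higher and 3.63% lower. The lower residues included A101 (-1.002), A27 (-0.944), G130 (-0.915), A38 (-0.807) and A54 (-0.723). A total of 7 residues passed in both environments in the same direction, which is 33.3% of the cell-free list and 63.6% of the in-cell list. A44, A83, A101, A113, A129 and G130 were lower in genomic, and A107 was higher. A72 passed both times in opposite directions, at 2.05 higher cell-free and 0.523 lower in cells. Of the 21 residues past the rule cell-free, 14 had the same sign in cells. Over exon 1 the difference was above 0 at 34 of 105 residues cell-free and at 31 of 105 in cells. Most residues were thus lower in genomic in each environment, and some sharing of sign follows from that alone.

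The values at A129 and G130 in the genomic RNA depend on where the insert is placed. As placed here the insert starts with GU and ends with AG, and an earlier placement would start it with AG. Its last bases match those of exon 1, so by sequence match alone A129 and G130 could also be genomic 694 and 695. Placed there, A129 was at 1.496 in genomic cell-free and 1.28 in-cell in place of 0.399 and 0.419, and G130 was at 1.037 and 1.097 in place of 0.092 and 0.012. Both would then be above the spliced values, and the direction reverses.

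Within the genomic RNA, in-cell minus cell-free, 21 of 105 residues passed the rule, 8 higher and 13 lower in cells. Over all residues 12.4% passed, 4.5% higher and 7.92% lower. The largest were A107 (-2.78), A72 (-2.21), G63 (1.28), A83 (1.04) and A96 (-0.869). At A107 the 5NIA rate was 1.07% (95% Wilson interval 1.01 to 1.14%) in cells, against 11.2% cell-free. G63 was at -0.636 cell-free, with a 5NIA rate of 0.688% below a DMSO rate of 2.36%, and at 0.643 in cells. The residues with a 5NIA rate below DMSO numbered 34 cell-free and 3 in cells, and their part in the differences was not tested. The correlation of genomic with spliced cell-free replicate 1 over exon 1 was 0.589 for genomic cell-free and 0.877 for genomic in-cell.

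**Figure D4:**
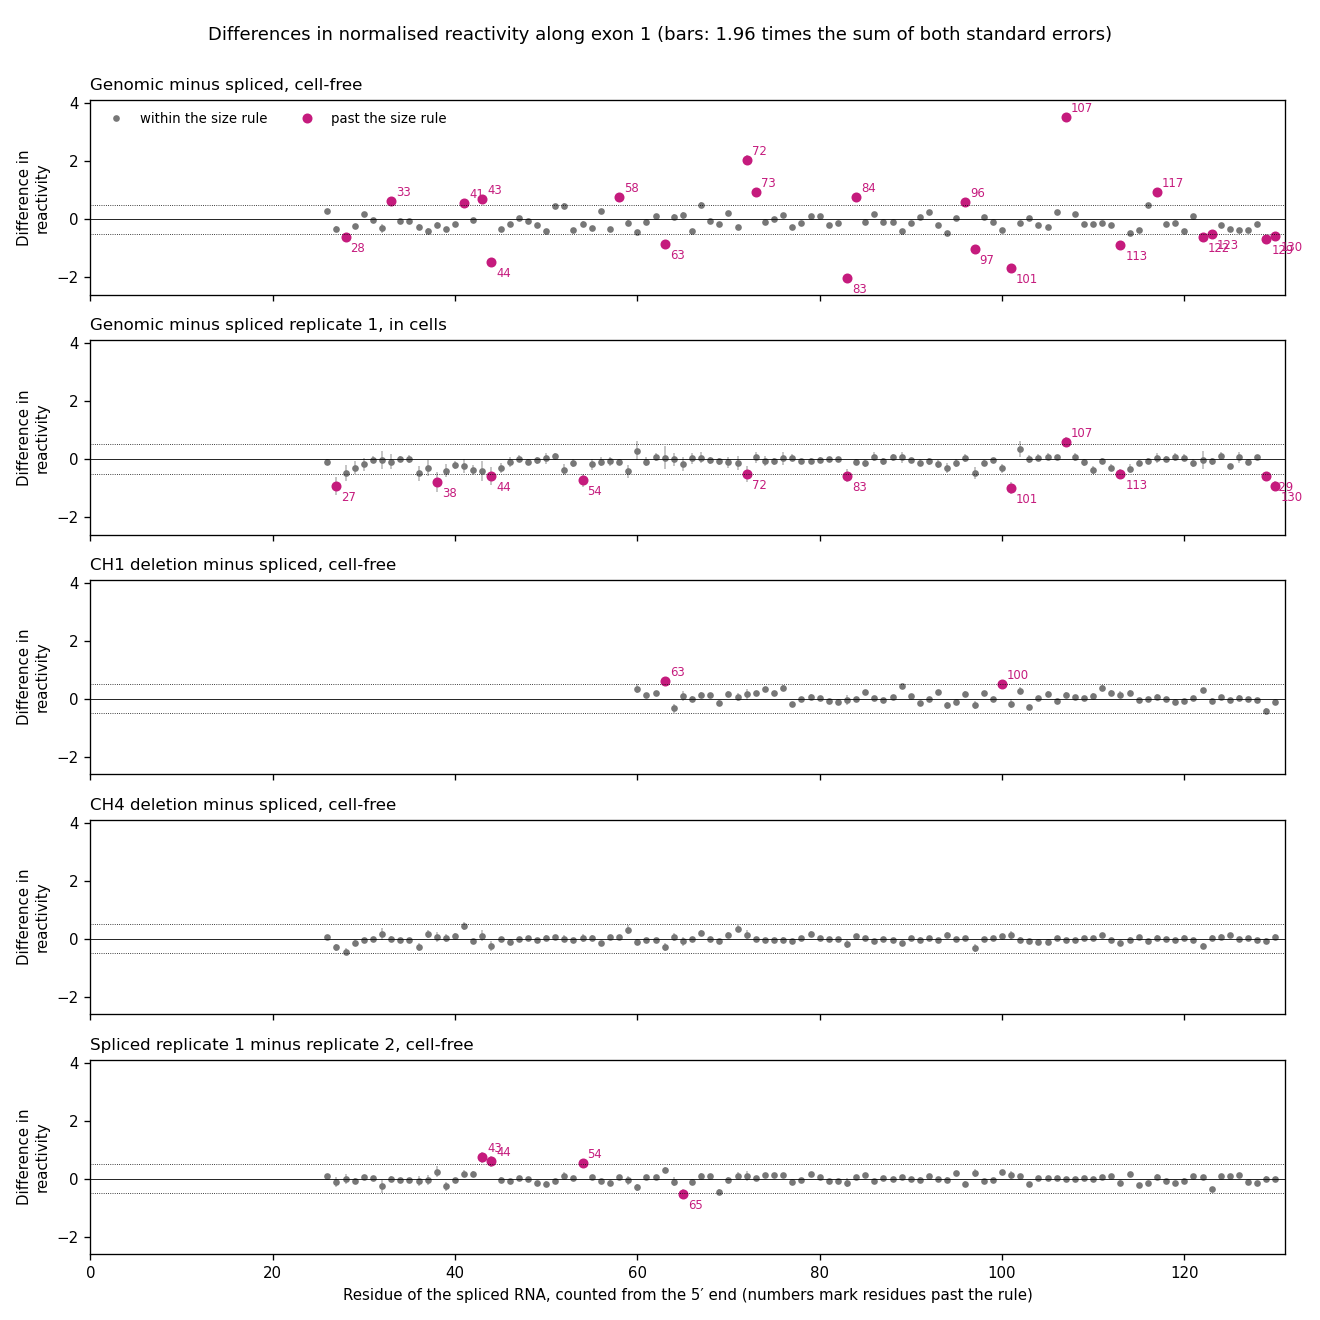
Difference in normalised reactivity (y axis) at each residue of exon 1 (x axis) in 5 comparisons, with bars of the summed 95% error margins and dotted lines at 0.5 either way. Pink points pass the size rule: 21 for genomic against spliced cell-free, 11 for genomic against spliced in cells, 2 for the CH1 deletion, 0 for the CH4 deletion and 4 between the spliced cell-free replicates.

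Deleting residues 6 to 34 removes the CH1 hairpin, and the deposited model of the deletion redraws most of the rest of exon 1. Of its residues 47 of 101 (46.5%) were paired. It had 27 pairs of 0.5 or more in exon 1, of which 11 lay within exon 1 and 16 reached exon 2. Residues 50 to 55 pair with 382 to 387 of exon 2 at 0.919 to 0.987. In the joined model G55 pairs with residue 173 at 0.892, and none of residues 50 to 54 has a partner at 0.5 or more. The hairpin before the junction opens in this model, and its residues 117 to 120 and 123 to 128 pair with 220 to 223 (0.8003 to 0.860) and 213 to 218 (0.720 to 0.958). The strands of these helices are shown because they replace those of the spliced RNA, with capitals for paired residues and spliced numbering.
CH1 deletion, linker strand (residues 49 to 60): uGGACAGgaaag
CH1 deletion, exon 2 partner of the linker (residues 381 to 388): aCUGUUCa
CH1 deletion, hairpin strand (residues 117 to 128): GUGCgcUUCUCC
CH1 deletion, exon 2 partner of the hairpin strand (residues 213 to 223): GGAGAGaGCAC
The arm also shifts, with residues 80 to 82 paired with 107 to 109 (0.740 to 0.777) and 85 to 87 with 102 to 104 (0.752). The helix of residues 90 to 92 with 98 to 100, at 0.822 to 0.868, is the part of the arm that stays.

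The reactivities of the CH1 deletion changed less than its model. Over the 71 shared residues its correlation with spliced cell-free replicate 1 was 0.947. Of these residues 2 passed the size rule, G63 (0.612 higher) and G100 (0.514 higher), against 3.23% of all residues compared. Against replicate 1 alone 0 passed, and against replicate 2 alone 2 did. G63 was at 0.835 in the deletion and 0.378 and 0.068 in the spliced replicates. The 15 residues paired in the joined model and unpaired in the deletion's model had a median reactivity of 0.140 in the spliced RNA and 0.555 in the deletion. The median of their single differences was 0.163, and 1 of them passed the rule. The 13 residues that go from unpaired to paired had medians of 0.286 and 0.295. A107, for example, is unpaired in the joined model and paired at 0.815 in the deletion's model, and was at 0.719 and 0.737 in the spliced replicates and at 0.871 in the deletion. G117 goes from a loop to a pair at 0.820 and was at 0.968 and 0.911 and at 1.01.

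The ROC area of the CH1 deletion profile from residue 60 on was 0.796 with its own model and 0.669 with the joined model. For genomic cell-free over the same residues it was 0.815 with its own model and 0.757 with the joined model. The labels tie each model to the data of its own RNA, so this difference has no independent check. The linker strand of the new helix, residues 50 to 55, lies in the primer site of the deletion and has no reactivity there. Its exon 2 partner, residues 382 to 387, had means of 0.325 and 0.261 in the spliced cell-free replicates and 0.305 in the deletion. Residues 213 to 218 had 0.308, 0.289 and 0.309, and residues 220 to 223 had 0.426, 0.414 and 0.531. None of these 3 strands had a mean in the deletion below that of both spliced replicates.

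Deleting residues 275 to 301 of exon 2 left exon 1 as it was by these measures. Of 105 residues 0 passed the size rule against the spliced mean, where 1.59% of all residues did, and against either replicate alone 1 passed. The correlation with spliced cell-free replicate 1 was 0.966. The mean reactivity of exon 1 was 0.471, against 0.480 and 0.474 in the spliced replicates. The model had 37 pairs in exon 1, with CH1 at 0.857 to 0.996 for its lower helix, and only C48 changed its state, from a summed probability just above 0.5 to below it. A27 (0.214) and A28 (0.182) were lower than in the spliced replicates by less than the rule asks. There is 1 profile of this RNA, so the size of differences that replicates would show is not known.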

How the data were processed

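The 16 SHAPE-MaP libraries form 8 pairs of a 5NIA and a DMSO library, and groups were taken from the labels' titles. Gene-specific reverse transcription with mutational profiling and PCR gave amplicons, which were read on a MiSeq as Nextera XT libraries, per the labels' protocols. The aligner, mutation counter, folding program and build are not given in the sources used here. Per the file headers, the authors deposited counts of mutations and of effective depth for each residue, and the mutation rate as a fraction, which equals mutations over effective depth. Their normalised reactivity and its standard error are deposited as a score with no fixed range. Its factor ran from 28.9 to 388 between profiles, so reactivities of different profiles share the authors' scale and not a rate. Pairing files, per the file headers, hold the −log10 of each pair's probability. The authors' deposited in-cell tables hold a natural log ratio for the cell-free RNA, an in-cell column on another log base, and a Z score.

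Lower-case residues of the deposited sequences, at the primers, were left out. Exon 1 is the stretch shared by the spliced and genomic sequences, and each form was aligned to the spliced one. Mutation counts of the 8 spliced libraries were tested with edgeR 4.0.16 (quasi-likelihood, log effective depth as offset, environment as covariate, at least 1000 effective reads and 10 mutations). Reactivities of the 4 spliced profiles were tested with limma 3.58.1 (trend) in R 4.3.3. Both used all residues and Benjamini-Hochberg adjustment at 0.05, and both procedures were checked on simulated data. Comparisons with 1 profile in an arm used the size rule and have no test. Helices are at least 3 stacked pairs of at least 0.5. Wilson intervals are at 95%. DESeq2 1.42.0, other scalings, thresholds and left-out libraries were tried as alternatives. Named are the ends and loops of every joined-model helix, the 8 most reactive residues cell-free, the 5 largest differences past the rule in each comparison, the 3 smallest p-values of limma where none passed, paired residues of at least 0.7 in both cell-free replicates, residues 26 to 34, the last 6 of exon 1 and the partners in the CH1 deletion model. Other residues named to describe a helix, loop or partner switch were chosen after their values were seen. The region, its domains and these rules were chosen with earlier results of these data known. Sequences at the gene start are from RefSeq on GRCm38.p6, and no other genome sequence was used.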

Additional observations from a re-analysis of the deposited data

Results flagged for a closer look

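At 4 residues of exon 1 the in-cell minus cell-free difference had 1 sign in the genomic RNA and the other in the spliced RNA. At each it passed the size rule in genomic and in spliced replicate 2, and not in spliced replicate 1. In spliced replicate 2, 28 of 96 residues of exon 1 passed that rule. Only exon 1 was searched, so no share over all residues stands beside this count. The search covered the 21 residues of exon 1 past the rule in genomic, where both spliced replicates had a value. It kept those with the other sign in both spliced replicates and past the rule in at least 1 of them. That the spliced replicates share a sign is thus set by the search and is no support. The genomic difference comes from 1 profile in each environment, and the difference between the RNA forms was not tested. A72, the open residue before the arm, was 2.21 lower in cells in the genomic RNA (-2.21), while the spliced differences were 0.316 and 1.52 in replicates 1 and 2. G73, the first residue of the arm, had a genomic difference of -0.699 against 0.177 and 0.670. A83, in the arm, had a genomic difference of 1.04 against -0.343 and -0.920. A101, at the other side of the arm, had 0.720 against -0.0229 and -0.764, and its spliced replicate 1 difference is near 0. The spliced replicate 2 values rest on the in-cell library of the lowest depth, and the genomic cell-free values on the profile in which 34 of 105 residues had a 5NIA rate below DMSO. Their part in these differences was not tested.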

How the results depend on the processing

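The processing moved 32 of 96 alternative values of the main results by more than 1.5 times or past the replicate spread, and 64 stayed. For single residues 250 values kept their direction and side, 43 lost the call and 4 gained it, and no value changed sign among the called ones. For 5NIA against DMSO by edgeR, the 63 residues became 7 with TMM factors and 0 with the in-cell libraries alone (19 unadjusted), and leaving out libraries gave 0 to 70. DESeq2 gave 71, a depth of at least 5000 gave 52, cell-free libraries alone 67, and all 16 libraries 50 of 71. Whether replicate numbers pair the libraries is not settled. Between environments the reactivity deviations correlated at -0.0232, or 0.130 without residues of high mutation rate, and the log2 rate deviations that edgeR uses at 0.263 with 5NIA and 0.217 with DMSO. Deviations of 5NIA and DMSO libraries correlated at 0.297 cell-free, 0.325 in cells, and 0.287 and -0.00768 across environments. With the replicate block edgeR called 65 residues and limma 0, so the block changed no count by over 1.5 times. For in-cell against cell-free by limma, leaving out a profile gave 0 to 53, and every other alternative gave 0. Residues past the size rule at 0.3 and at 1 in place of 0.5 were 45 and 6 for genomic cell-free, 9 and 0 for the CH1 deletion, 35 and 4 for genomic between environments, 13 and 0 for spliced replicate 1, 26 and 1 for genomic against spliced in cells, and 8 and 0 between the cell-free replicates. At 0.3 the CH4 deletion had 5, and at 1 spliced replicate 2 had 8. Equal means left 1 residue for the CH1 deletion. Against each spliced replicate alone genomic had 20 and 24, the CH1 deletion 0 and 2, and the CH4 deletion 1 and 1. Genomic pairs were 57 at 0.3 and 19 at 0.8. Medians in place of means over residues gave spliced cell-free reactivities of 0.286 against 0.477 and rate differences of 0.878 against 1.46 percentage points, and in-cell 0.339 against 0.818 and 0.137 against 0.291. Single replicates gave 0.474 to 0.480, 1.28 to 1.64, 0.528 to 1.11 and 0.267 to 0.315. Alternatives added after seeing the data were amplicon 1 alone, equal medians and limma without high-rate residues, and they changed none of the counts by over 1.5 times. The lowest median depth was 7674 reads, in the 5NIA library of in-cell replicate 2.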
